A study of Mus musculus with 14 samples.

Results

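GABA_22 is a cluster of GABAergic neuron nuclei in snRNAseq data from mouse brain. Summed over the cluster, its markers best match the inhibitory interneurons of the cerebellar molecular layer. The match does not cover all nuclei, as sub-clusters 2 and 4 below, with 45 and 30 nuclei, had raised markers of several other cells. Its members are the nuclei that the authors' cluster table labels GABA_22, 251 of the 31324 nuclei of the brain data. The brain libraries were made to study vascular endothelial cells (ECs), so vascular fragments were enriched by centrifugation and neurons came along with them. The control library is labelled wild type, and the other library is *Cdh5CreER;Tgfbr1 CKO/-* (CKO), a genotype whose Cre is expressed in ECs and is activated by 4-hydroxytamoxifen, given on postnatal days 3 to 5. The mice were taken on postnatal day 14, although the labels call them young adults. The Cre deletes the TGF-beta receptor gene *Tgfbr1* in ECs and was not aimed at neurons, while the second *Tgfbr1* allele is null in every cell of these mice. Each genotype has 1 library of pooled brains, so no test between genotypes was possible, and all intervals below are exact 95% intervals that cover counting error only. Limits for a count of 0 are those of 3 counts instead.

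Molecular layer interneurons, the basket and stellate cells, are the GABAergic cells that inhibit Purkinje cells and each other in the outermost layer of the cerebellar cortex. They descend from progenitors that express the transcription factor *Pax2*, reach the molecular layer in the first postnatal weeks, and receive their main excitatory input from the parallel fibers of granule cells. In the adult they fall into a type that expresses *Sorcs3* and *Ptprk* and a type that expresses *Nxph1*.

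The control library held 198 GABA_22 nuclei with 281798 UMIs (unique molecular identifiers, each a captured transcript), and the CKO library held 53 with 44688 UMIs. The median nucleus had 1180 UMIs in the control (range 389 to 5341) and 767 in the CKO library (range 403 to 2197), from 466 and 304 genes. The GABA_22 nuclei of the CKO library were therefore shallower. Each other neuron label was shallower there too, as with GABA_9 (medians of 3495 and 1408) and Glut_5 (713 and 502). ECs were not, at 1347 and 1491. Over all nuclei the medians were 1541 and 1395 UMIs, from totals of 49798325 and 31033373. Levels below are UMIs summed over GABA_22 nuclei per 1000000 summed UMIs (CPM). The libraries share 2 barcode sequences, and 0 of these are in GABA_22.

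GABA_22 nuclei carried the transcripts of GABA synthesis. *Gad1*, which encodes a GABA-synthesizing enzyme, was at 713 CPM in control and 291 CPM in CKO nuclei, 22.8-fold and 9.63-fold above all other nuclei of the same library. *Gad2*, the gene of the second such enzyme, was at 578 and 425 CPM, 10.3-fold and 7.89-fold above the others. Both were raised, meaning at least 2-fold above all other nuclei in both libraries with a UMI in at least 5% of GABA_22 nuclei. Over all genes 416 of 26528, or 1.57%, met that rule, which describes the cluster and is no test, since the clusters were made from these genes. Of the 879 genes with at least 50 UMIs and a UMI in at least 10% of GABA_22 nuclei 273 met it (31.1%). The 2-fold condition alone gave 289 of the 879, so raised members of a list of expressed genes are no rarity. The vesicular GABA transporter gene *Slc32a1* had 9 UMIs in control and 1 in CKO nuclei, too few to be called. *Gad1* was detected in 58.6% of control and 20.8% of CKO GABA_22 nuclei. In ECs, which should lack it and had medians of 1347 and 1491 UMIs, it was detected in 0.768% and 1.36%. The 3 glutamatergic neuron markers had 1 UMI in control nuclei, so control GABA_22 held GABAergic neurons. They had 0 in CKO nuclei, where the exact upper limit was 82.5 CPM, beside 85.0 CPM in all other nuclei. The CKO nuclei are called GABAergic from *Gad1* and *Gad2*, of which sub-cluster 5 below, 17 CKO nuclei, had 2 and 1 UMIs.

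The class and region were read from lists of markers, and the list for molecular layer interneurons was the fullest match. Of its 8 genes 7 were raised, of 18 raised among 191 markers on all lists, and its summed level was 8960 CPM in control and 10003 CPM in CKO GABA_22 against 1234 and 1305 CPM in all other nuclei. *Tfap2a*, the gene of a transcription factor of the AP-2 family (chromosome 13 of GRCm39, 40868778 to 40891852), was at 181 CPM in control and 134 CPM in CKO GABA_22 and at 1.96 and 1.84 CPM elsewhere. Its relative *Tfap2b* (chromosome 1, 19279138 to 19309069) was at 312 and 336 CPM, against 7.71 and 4.52 CPM elsewhere. Both AP-2 genes were higher in GABA_22 than in each of the other 20 labels in either library. *Kit*, the gene of a receptor tyrosine kinase whose ligand is made by Purkinje cells (chromosome 5, 75735576 to 75817404), was at 1228 CPM in control and 1231 CPM in CKO GABA_22 and at 36.1 and 67.6 CPM elsewhere. *Kit* UMIs were in 74.7% of control and 64.2% of CKO GABA_22 nuclei, and also in 13.1% of control and 32.1% of CKO ECs. *Sorcs3*, the gene of a sorting receptor (chromosome 19, 48194464 to 48793944), was at 2793 and 3312 CPM, 10.9-fold and 12.1-fold above the others. The list's other raised genes were *Lypd6*, at 224 and 537 CPM, *Nxph1*, which encodes a ligand of neurexins, at 2214 and 3222 CPM, and the receptor phosphatase gene *Ptprk*, at 1994 and 1208 CPM. The gap junction gene *Gjd2* was not raised, with UMIs in 2.02% of control and 1.89% of CKO nuclei.

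The 20 genes with the highest level relative to all other nuclei, ranked by the smaller ratio of the libraries among 879 genes with at least 50 UMIs and a UMI in at least 10% of GABA_22 nuclei, stood 15.0-fold to 78.4-fold above. Of these 19 had their highest level of all 21 labels in GABA_22 in both libraries, the exception being *Pvalb*, which was higher in Glut_20. *Rora*, the gene of a nuclear receptor needed for cerebellar development (chromosome 9, 68561068 to 69295528), was at 56129 CPM in control and 54153 CPM in CKO GABA_22 against 2217 and 1747 CPM elsewhere. It was detected in 99.0% of control and 100% of CKO GABA_22 nuclei, but also in 32.4% of control ECs, so its level and not its presence marked the cluster. *Gldc*, which encodes the glycine decarboxylase of the glycine cleavage system (chromosome 19, 30071975 to 30152871), was at 809 and 985 CPM against 12.6 and 8.36 CPM elsewhere. *Ntn1*, the gene of the axon guidance molecule netrin-1 (chromosome 11, 68100190 to 68291662), was at 2026 and 1947 CPM against 52.9 and 43.1 CPM. *Megf10*, the gene of an EGF-repeat receptor for engulfment and cell spacing, was at 1175 and 671 CPM against 27.2 and 18.8 CPM. *Pvalb*, which encodes the calcium buffer parvalbumin (chromosome 15, 78075314 to 78091149), was at 351 and 358 CPM, 20.3-fold and 34.1-fold above the others. These genes therefore include transcription factors, secreted and receptor proteins and metabolic enzymes. The others of the 20, in descending order of the ratio, were *Dnajc12*, *Shc4*, *Sla*, *Chst9*, *Trim67*, *Dusp10*, *Cnpy1*, *Marchf11*, *Eml5*, *Btbd11*, *Adamts2* and *Hunk*, with smaller ratios between 47.2 and 15.0, in addition to *Tfap2a*, *Tfap2b* and *Kit*.

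**Figure D1:**
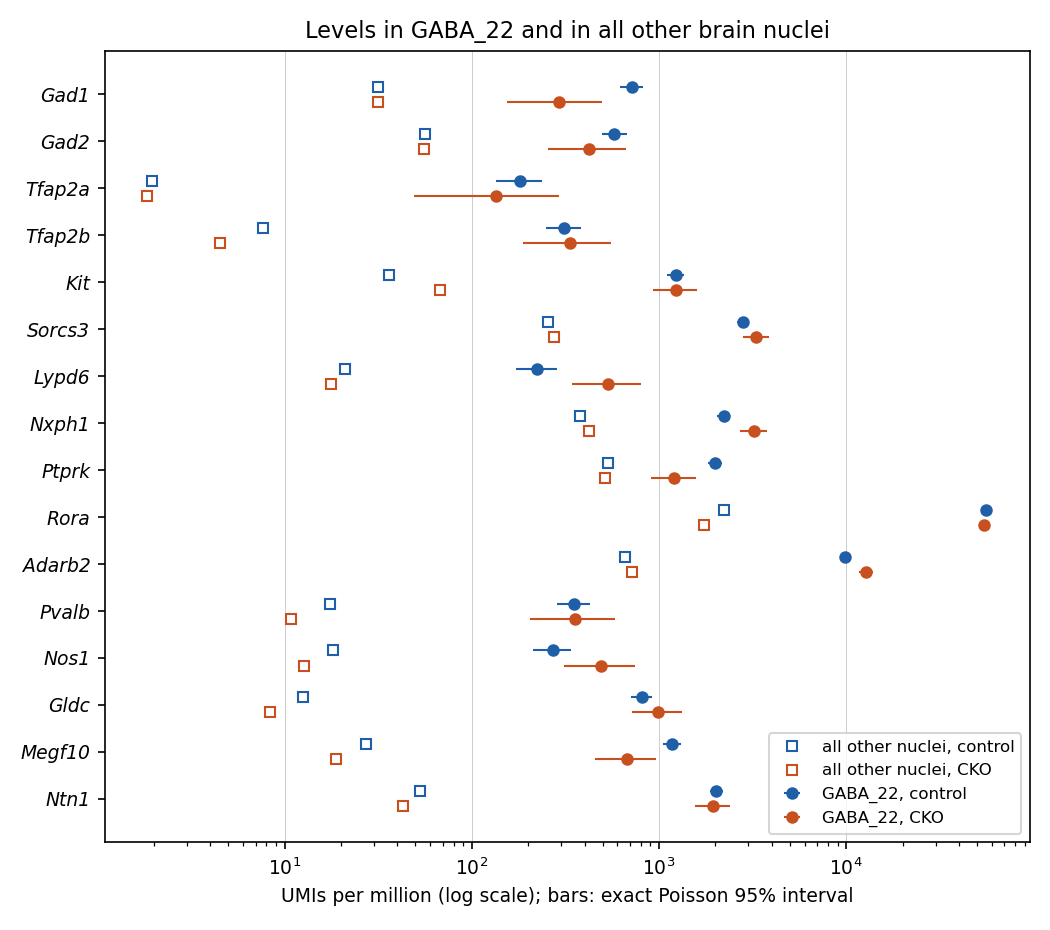
CPM (log axis) of 16 genes in GABA_22 (filled circles with exact Poisson 95% intervals) and in all other brain nuclei of the same library (open squares), control in blue and CKO in orange. Every gene shown sits at least 2-fold higher in GABA_22 than in the other nuclei of both libraries, for example *Rora* at 56129 against 2217 CPM in the control.

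Against GABA_9, the other GABA label, with 611 control and 665 CKO nuclei, GABA_22 differed by many of the same genes. The 15 genes that stood highest in GABA_22 relative to GABA_9 were 27.6-fold to 220-fold above it, and 12 of these 15 were among the 20 above. The 3 others were *Dnah11*, *Tbc1d4* and *Lypd6*, of which *Lypd6* was at 7.98 CPM in control GABA_9. Genes of striatal projection neurons were low in GABA_22. *Rgs9*, which encodes a striatal regulator of G protein signaling, had 1 UMI in control and 0 in CKO GABA_22 and stood at 922 CPM in control GABA_9. *Camk2a*, a kinase gene of forebrain projection neurons, also had 1 and 0 UMIs. Of the genes lowest relative to GABA_9, *Cntnap5b*, *Gng7*, *Pde2a* and *Gm10754* had 0 UMIs in both libraries of GABA_22. GABA_9 nuclei were deeper, with medians of 3495 and 1408 UMIs.

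The marker lists for the other cells a cerebellar or forebrain sample could hold had few raised genes. Of the 10 Purkinje cell markers 0 were raised, and 5 were at 0 in both libraries. Their most abundant member, the IP3 receptor gene *Itpr1*, was at 383 CPM in control GABA_22 against 650 CPM in all other nuclei. Of the 5 Golgi cell markers 0 were raised, and the glycine transporter gene *Slc6a5* had 23 UMIs in control and 0 in CKO GABA_22. The 9 granule cell markers summed to 99.4 CPM in control and 403 CPM in CKO GABA_22 (ratio 4.05, 2.11 to 7.59), with *Pax6* the most abundant in control and *Fat2* in CKO nuclei, so granule cell markers took a larger share of the UMIs of the CKO nuclei. Vascular and choroid plexus markers were scarce, with 4 UMIs of *Flt1* in control and 0 in CKO nuclei for the ECs, and 9 and 0 of *Ttr* for the choroid plexus. Astrocyte markers had 63 and 21 UMIs, at 224 and 470 CPM against 1390 and 955 CPM in the other nuclei. The 4 markers of oligodendrocyte precursors stood above the other nuclei, at 1679 and 2842 CPM against 631 and 573 CPM. The pericyte, smooth muscle, fibroblast, hypothalamic, midbrain and lateral septum lists were at 0 UMIs, and 0 markers of striatal, olfactory bulb, amygdala, pallidal, cholinergic and cortical neurons, astrocytes, oligodendrocytes and microglia were raised. Single members of other lists were raised, among them *Adarb2*, a marker of interneurons from the caudal ganglionic eminence, at 9872 CPM in control and 12755 CPM in CKO GABA_22 against 661 and 714 CPM elsewhere. The others were *Cnr1*, *Nxph1* and *Pvalb*, which also mark forebrain interneurons, *Pax2*, a gene of hindbrain inhibitory neurons, *Rora*, which also marks thalamic neurons, the immature neuron gene *Dcx*, and *Vcan* and *Lhfpl3* of the oligodendrocyte precursor list. *Pax2* had 47 UMIs in control but 3 in CKO nuclei, and 40 of these UMIs were in sub-cluster 2, described below. Over the other GABA and Glut nuclei alone *Dcx* was not raised, and 17 markers on all lists were. No list of another neuron class, region or cell type had more than 2 raised genes.

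Glutamate receptor genes stood on both sides of their level in the other nuclei. The AMPA receptor genes *Gria4*, at 7935 and 6109 CPM, and *Gria3*, at 3130 and 2976 CPM, were 5.48-fold to 8.14-fold above the others, while *Gria1* was below them at 39.0 and 201 CPM against 792 and 859 CPM. The kainate receptor gene *Grik3* was at 869 and 1164 CPM, 8.27-fold and 10.0-fold above. *Grin1*, *Grin3a*, *Grm8* and *Grid1* were raised too.

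Among the GABA and glycine receptor genes *Gabrb2*, which encodes a GABA-A receptor subunit, was raised, at 1370 CPM in control and 1522 CPM in CKO GABA_22, 3.14-fold and 4.48-fold above the other nuclei. *Gabra2* was low, at 53.2 CPM in control GABA_22 against 514 CPM in control GABA_9.

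Some voltage-gated potassium and calcium channel genes were raised, as were 31.1% of the expressed genes above. *Kcna2*, a potassium channel gene of basket cell terminals, was at 355 CPM in control and 313 CPM in CKO GABA_22 against 25.0 and 17.5 CPM in the other nuclei, and *Kcna1*, its partner there, was at 213 and 269 CPM against 40.5 and 31.3 CPM. Both were raised, and so were *Kcnma1*, *Kcnd3* and *Cacna1d*. Among the 16 genes of calcium-binding proteins and neuropeptides *Pvalb* and *Nos1* were raised and 11 were at 0 in both libraries. *Nos1*, which encodes neuronal nitric oxide synthase, was at 270 and 492 CPM against 18.2 and 12.7 CPM. Among synaptic adhesion genes *Nrxn3* and *Nlgn1* were raised, and *Nrxn3*, the gene of a presynaptic neurexin, was at 31310 and 30299 CPM against 4742 and 4667 CPM. The abundant receptor phosphatase gene *Ptprd* stood the other way, at 153 and 291 CPM against 6405 and 7111 CPM. Over the other GABA and Glut nuclei alone, 1 synaptic adhesion gene was raised in place of 3. Likewise 5 voltage-gated channel genes were raised in place of 7, and 8 glutamate receptor genes in place of 9.

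The pathway deleted in ECs was barely seen in these neurons. The 40 genes of the TGF-beta and BMP pathway summed to 103 UMIs in control and 20 in CKO GABA_22, none was raised, and 18 were at 0 in both libraries. *Tgfbr1* had 0 UMIs in control and 1 in CKO GABA_22, so its level in these neurons could not be compared. *Smad3*, which encodes a signal transducer of TGF-beta receptors, had 42 UMIs in control and 0 in CKO nuclei, at least 2.22-fold lower in CKO, with a floor of 3 counts. That floor leaves out the counting error of the control. With a minimum of 20 UMIs 577 of 1770 genes were at least 2-fold lower in CKO, so such a fall was common. The list as a whole was at 366 and 448 CPM (ratio 1.22, 0.718 to 1.99), and none of its genes reached 50 UMIs. Immediate early genes, which report recent activity, had 10 UMIs in control and 0 in CKO GABA_22, all from *Homer1*. Interferon response and antigen presentation genes had 2 UMIs in each library, all from *Stat2*, so that 21 of the 22 were at 0. Of 13 hypoxia and glycolysis genes 11 were at 0 and the glycolytic enzyme gene *Pfkp* and *Vegfa* were raised over other nuclei. *Pfkp* was at 1054 CPM in control and 492 CPM in CKO GABA_22 (ratio 0.467, 0.288 to 0.721).

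Clustering of the GABA_22 nuclei on their own gave 6 sub-clusters, numbered 0 to 5 and unevenly filled by the libraries. With 1 library per genotype, a sub-cluster that is mostly of 1 library may be that library and not a type, and none had a set of markers that allowed a name. Sub-clusters 0, 1 and 5 shared high *Sorcs3*, at 3861, 4077 and 4735 CPM. They also had high *Adarb2*, at 11744, 14342 and 18091 CPM, beside 10443 CPM in sub-cluster 4. Their *Nxph1* was at or near 0, with 111 CPM in sub-cluster 0. Sub-cluster 0 held 58 control and 6 CKO nuclei, and its leading genes were *Plch1*, at 589 CPM against 62.1 CPM in the other GABA_22 nuclei, and *Arhgef26*, at 606 against 66.9 CPM. Sub-cluster 1 held 60 control and 3 CKO nuclei, with *Cdh6* and *Negr1* leading and 3247 CPM of *Ptprk* against 1431 CPM. Sub-cluster 5 held 17 CKO and 0 control nuclei, a count of 0 for which the limit of 3 counts is 1.52% of the control nuclei. It had the glutamate receptor gene *Grm8*, which was also high in sub-cluster 0, at 5583 CPM against 1431 CPM, and *Lypd6* at 1060 against 231 CPM.

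Sub-cluster 3 held the reverse pattern in 23 control and 9 CKO nuclei. *Nxph1* was at 14036 CPM in its nuclei and 696 CPM in the rest (20.2-fold, 17.1 to 23.8), with a UMI in 32 of 32. The cadherin gene *Cdh22* was at 1209 against 97.9 CPM, the metabotropic receptor gene *Grm5* at 1357 against 129 CPM, and *Rgs6* at 2615 against 101 CPM. *Sorcs3* was at 173 CPM, *Ptprk* at 49.3 CPM and *Adarb2* at 962 CPM, each below its level in sub-clusters 0, 1 and 5. *Kit*, at 2023 CPM, was above its level in each other sub-cluster, and *Rora* was at 44526 CPM, within its range over the others.

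A split of *Sorcs3* and *Nxph1* was also counted in single nuclei. These are the nuclei and genes the sub-clusters were made from, so the count is no separate support. It was not the split of sub-cluster 3 alone. Over both libraries *Nxph1* UMIs were in 32 nuclei of sub-cluster 3, 18 of sub-cluster 2, 15 of sub-cluster 4 and 7 of sub-cluster 0. Over both libraries 145 of 251 GABA_22 nuclei had a UMI of *Sorcs3* without *Nxph1*, 49 had *Nxph1* without *Sorcs3*, 23 had both and 34 had neither. *Ptprk* was found in 83.9% of the nuclei with *Sorcs3* and in 22.2% of those with *Nxph1*, against 56.2% of control ECs. In the 126 nuclei thinned to 1000 UMIs, which leaves out 83 control and 42 CKO nuclei, 87 had *Sorcs3* only, 23 had *Nxph1* only and 6 had both. Of the 126 nuclei 115 were control, with 78, 23 and 5, so *Nxph1* and *Sorcs3* mostly marked different control nuclei at a depth made equal. Among thinned control ECs *Sorcs3* was in 0.408% and *Nxph1* in 0.952%. In the CKO library 9 of the 18 nuclei with *Nxph1* also had *Sorcs3*, and the 11 thinned nuclei were too few to show the split.

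Sub-cluster 2 held 45 control nuclei, 22.7% of the control, and 0 of the 53 CKO nuclei, for which the limit of 3 counts is 5.66%. Its leading gene was *Pax2* (chromosome 19, 44735057 to 44826703), at 1047 CPM against 34.7 CPM in the other GABA_22 nuclei (30.2-fold, 14.8 to 67.7). The cell adhesion gene *Nrcam* was at 3166 against 278 CPM, the nuclear factor I gene *Nfia* at 2957 against 309 CPM, *Zbtb20* at 4553 against 559 CPM and the netrin receptor gene *Dcc* at 1701 against 177 CPM. Within sub-clusters a gene is called raised if at least 2-fold above the rest of GABA_22 with a UMI in at least 5% of the nuclei, which 1.91% of all genes met in sub-cluster 2 and 3.84% in sub-cluster 4. Some of these rest on few UMIs. Raised in sub-cluster 2 were 3 of 5 markers for immature neurons (*Dcx*, *Sox11* and *Igfbpl1*), 3 of 12 for hindbrain inhibitory neurons (*Slc6a5*, *Pax2* and *Lhx5*), 2 of 5 for Golgi cells (*Gpr176* and *Slc6a5*) and 2 of 9 for granule cells (*Pax6* and *Zic1*). Single markers of other cells were raised too, namely *Slc4a4* of astrocytes, with 24 UMIs, *Meis2*, with 22 UMIs, *Vcan*, *Foxp1*, *Dlx6os1* and *Flt1*. Of the 8 molecular layer interneuron markers 0 were raised there, with a sum of 5782 against 9543 CPM. Raised markers thus came from more than 1 class, and sub-cluster 2 is called by its number. *Gad1* was at 2146 CPM and *Gad2* at 1125 CPM there, while *Pvalb*, *Lypd6* and *Grm8* had 0 UMIs. Its median nucleus had 788 UMIs.

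Sub-cluster 4 held 12 control nuclei (6.06%, 3.17 to 10.3) and 18 CKO nuclei (34.0%, 21.5 to 48.3). It was led by the kainate receptor gene *Grik2*, at 4484 CPM against 95.9 CPM in the other GABA_22 nuclei, *Ptprd*, at 1302 against 37.7 CPM, and the potassium channel gene *Kcnq5*, at 1591 against 65.1 CPM. Markers of other cells were raised in it, namely 6 of 9 for granule cells, at 926 CPM in sum against 48.0 CPM, 3 of 8 for astrocytes, at 1273 against 137 CPM, and 4 of 14 for striatal medium spiny neurons. *Fat2* was the most abundant granule cell marker, with 10 of 32 UMIs. The markers of molecular layer interneurons were lower there, at 5844 against 9489 CPM, and *Rora*, at 32516 CPM, was lower than in each other sub-cluster. Sub-cluster 4 thus held RNA typical of several cell types, although the authors had removed doublets before the counts were deposited, and whether nuclei or free RNA were mixed in it was not tested.

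**Figure D2:**
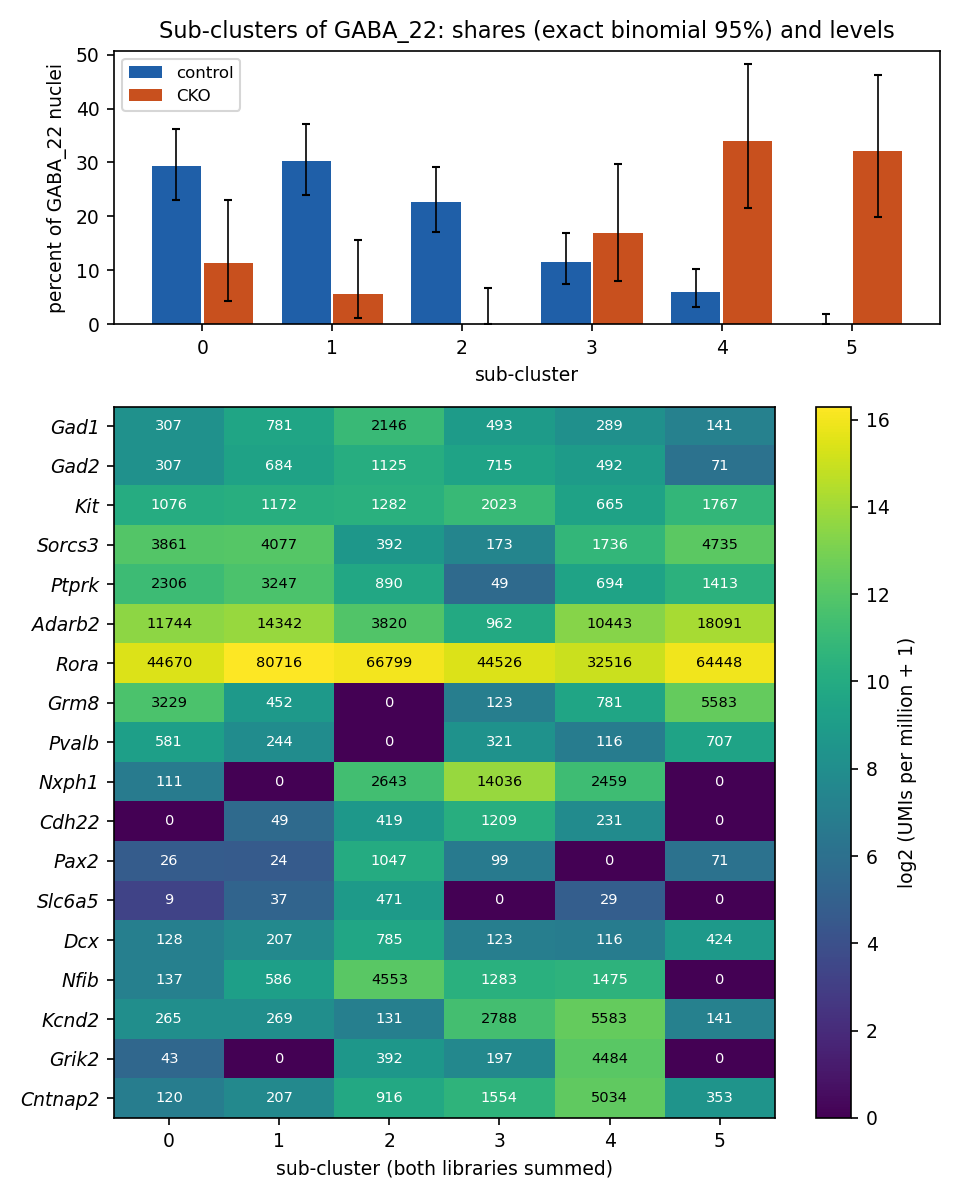
Upper panel, percent of GABA_22 nuclei of each library in each sub-cluster, with exact binomial 95% intervals, control in blue and CKO in orange. Lower panel, CPM of 18 genes in each sub-cluster, both libraries summed, colored on a log2 scale. *Nxph1* is at 14036 CPM in sub-cluster 3 and *Pax2* at 1047 CPM in sub-cluster 2. *Sorcs3* and *Adarb2* are high in sub-clusters 0, 1 and 5, and *Adarb2* is also at 10443 CPM in sub-cluster 4.

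GABA_22 made up 1.19% (1.03 to 1.37) of all control nuclei, 198 of 16649, and 0.361% (0.271 to 0.472) of all CKO nuclei, 53 of 14675. The share in the CKO library was 3.29-fold smaller (ratio 0.304, 0.220 to 0.413). Among nuclei with at least 1000 UMIs it was 8.78-fold smaller (ratio 0.114, 0.0553 to 0.211), from 115 control and 11 CKO GABA_22 nuclei. That cut left out 83 of the 198 control and 42 of the 53 CKO GABA_22 nuclei, which were shallower, so this fold holds the depth difference too. Several labels were smaller in the CKO library, among them microglia (0.775% and 0.0750%), pericytes (1.21% and 0.150%), vascular smooth muscle cells (2.70% and 0.702%), glia (7.37% and 2.86%) and the cerebellar label Glut_5. All 9 granule cell markers stood at least 2-fold higher in Glut_5 than in the other nuclei of both libraries, as with the GABA receptor gene *Gabra6*, 44.3-fold and 68.1-fold higher, and the Glut_5 label covered 1858 control nuclei (11.2%) but 251 CKO nuclei (1.71%). The Glut_5 share was thus 6.52-fold smaller (ratio 0.153, 0.134 to 0.175). Counted among GABA_22 and Glut_5 nuclei alone, a denominator chosen after seeing the data, GABA_22 took 9.63% (8.39 to 11.0) in the control and 17.4% (13.3 to 22.2) in the CKO library, so the direction turned. How much cerebellar tissue each preparation held was not tested, and with 1 library per genotype it cannot be told apart from genotype.

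Several genes that define GABA_22 were alike in the libraries and others were not. *Rora* had a CKO over control ratio of 0.965 (0.924 to 1.01), *Kit* of 1.00 (0.740 to 1.34), *Pvalb* of 1.02 (0.561 to 1.74), *Ntn1* of 0.961 (0.758 to 1.21) and *Tfap2b* of 1.07 (0.577 to 1.87). *Adarb2* was 1.29-fold higher in CKO nuclei (1.18 to 1.41) and *Lypd6* 2.40-fold (1.44 to 3.90). Lower were *Dnajc12*, at a ratio of 0.423 (0.214 to 0.757), *Megf10*, at 0.572 (0.380 to 0.832), and *Ptprk*, at 0.606 (0.450 to 0.802). *Gad1* was also lower, at 0.408 (0.213 to 0.713), and *Gad2* was at 0.735 (0.431 to 1.19). *Gad1* was highest in sub-cluster 2, which had 0 CKO nuclei, and in sub-clusters 0, 1 and 5 alone its ratio was 0.377 (0.101 to 0.996). These sub-clusters differ between the libraries too, as 17 of their 26 CKO nuclei and 0 of their 118 control nuclei are in sub-cluster 5, where *Gad1* was at 141 CPM, beside 307 CPM in sub-cluster 0 and 781 CPM in sub-cluster 1. With nuclei thinned to 1000 UMIs *Gad1* was in 37.4% (28.5 to 46.9) of 115 control nuclei and 18.2% (2.28 to 51.8) of 11 CKO nuclei, intervals that overlap, and *Gad1* was in 0.0680% of thinned control ECs.

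Of 884 genes with at least 50 UMIs over both libraries of GABA_22, 265 (30.0%) had a CKO over control ratio of at least 2 or at most 0.5, with 62 higher (7.01%) and 203 lower (23.0%) in CKO. Intervals lay wholly past 2-fold for 18 higher and 26 lower genes. The median log2 ratio over the 884 genes was −0.18, and TMM factors, another scaling of the totals, moved it to −0.40 and left 40 genes higher and 253 lower. Changes of a list are to be read against that median.

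The highest ratios belonged to genes that were abundant in other labels, as the levels of 6 of them show. *Kcnq5* was at 117 CPM in control and 917 CPM in CKO GABA_22 (7.83-fold, 4.83 to 12.8), and *Grm5* at 149 and 1119 CPM (7.51-fold, 4.88 to 11.6). The potassium channel gene *Kcnd2* was at 763 and 3379 CPM (4.43-fold, 3.57 to 5.48), and *Grik2* at 397 and 1589 CPM (4.00-fold, 2.93 to 5.43). *Arpp21*, *Ralyl*, *Lrrtm3*, *Kazn*, *Cntnap2* and *Pde10a* completed the 10 highest, between 4.40-fold and 6.06-fold. Control Glut_5 nuclei had 15450 CPM of *Kcnd2*, 8708 CPM of *Grik2*, 5565 CPM of *Ralyl* and 3726 CPM of *Lrrtm3*, the highest level of any other label for each, and GABA_9 had 4172 CPM of *Grm5* and 4343 CPM of *Pde10a*. Sub-cluster 4 held 34.0% of the CKO GABA_22 nuclei and 57.1% of their UMIs from the 62 genes, against 40.7% of all their UMIs. Without sub-cluster 4, an alternative chosen after seeing the data, 268 of 786 genes (34.1%) were past 2-fold, 40 higher and 228 lower. Of the 62 higher genes 42 still had 50 UMIs and 30 of these were past 2-fold, and of the 203 lower genes 174 had 50 UMIs and 147 were past 2-fold. *Grik2* was then at a ratio of 1.20 (0.232 to 3.94), *Ralyl* at 1.34 (0.148 to 5.74), *Arpp21* at 1.43 (0.158 to 6.23), *Pde10a* at 1.77 (0.606 to 4.26) and *Kcnd2* at 1.85 (1.18 to 2.81), while *Kazn* was at 6.68 (3.31 to 13.1), *Grm5* at 7.73 (4.50 to 13.1), *Lrrtm3* at 7.79 (2.47 to 23.5) and *Kcnq5*, with 19 UMIs, at 9.01 (3.24 to 24.7). The 2-fold rise of *Grik2*, *Ralyl*, *Arpp21*, *Pde10a* and *Kcnd2* was thus not met without sub-cluster 4, and that of the other 5 of the 10 highest was. Of the 10 only *Kcnd2*, *Grm5* and *Cntnap2* then still had 50 UMIs. The other ratios rest on fewer, as with *Lrrtm3*, at 9 UMIs in control and 7 in CKO, and *Kazn*, at 24 and 16. In sub-clusters 0, 1 and 5 *Kcnd2* was at 0.533 (0.106 to 1.64) and *Kazn* at 4.20 (1.14 to 13.1). *Kcnq5* had 0 UMIs in control and 4 in CKO nuclei there, *Lrrtm3* 1 and 0, and *Grm5* 4 and 0, its CKO UMIs being in sub-clusters 3 and 4.

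Within sub-clusters 0, 1 and 5 alone, also chosen after seeing the data, with 118 control and 26 CKO nuclei, 3 of the abundant genes were higher in CKO, *Rora* at 1.30-fold (1.23 to 1.37), *Nrxn3* at 1.38-fold (1.28 to 1.49) and *Sorcs3* at 1.31-fold (1.06 to 1.61). There 190 of 584 genes were past 2-fold, 15 higher and 175 lower. The 26 CKO nuclei had 20834 UMIs in all, against 192327 in the control, and as 17 of them were in sub-cluster 5 these ratios compare sub-clusters as well as libraries.

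Of the genes lower in CKO nuclei *Xist*, the RNA of the inactive X chromosome, led with 1180 UMIs in control and 0 in CKO (at least 62.4-fold lower). The guanine exchange factor gene *Vav3* had 205 UMIs in control and 1 in CKO (ratio 0.0308, 0.000775 to 0.173). *Nwd2* had 103 and 0 UMIs (at least 5.44-fold lower), the phospholipase C gene *Plch1* 82 and 0 (at least 4.33-fold), and *Crmp1*, which encodes a protein of axon growth, 79 and 0 (at least 4.18-fold). *Prkag2*, *Apbb2*, *Septin4*, *Trpc5* and *Asxl3* also had 0 UMIs in CKO, at least 3.07-fold to 4.07-fold lower. With the floor of 3 counts a 0 in CKO GABA_22 allows a level of up to 67.1 CPM, and 15 of the 203 lower genes were at 0. *Plch1* and *Nwd2* led sub-cluster 0, of which the CKO library had 6 nuclei, but they were also at 0 in the CKO nuclei of sub-clusters 0, 1 and 5 together, against 75 and 93 UMIs in the control. *Vav3* had 181 and 0 UMIs in those sub-clusters.

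**Figure D3:**
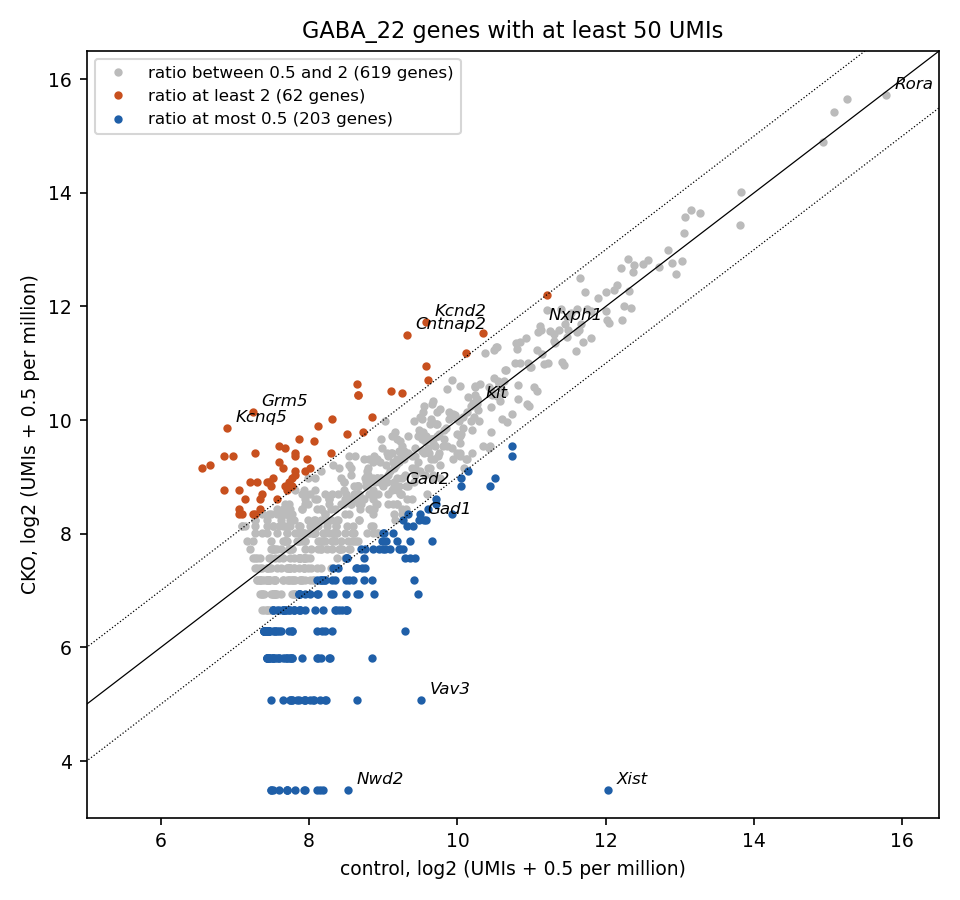
Level in CKO against level in control GABA_22 nuclei, each as log2 of CPM with 0.5 UMIs added, for the 884 genes with at least 50 UMIs; the solid line marks equal levels and the dotted lines a 2-fold difference. Orange marks the 62 genes with a ratio of at least 2 and blue the 203 with a ratio of at most 0.5, while *Rora*, *Kit* and *Nxph1* lie between the dotted lines.

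By function, glutamate receptor genes had a higher and GABA receptor genes a lower median ratio than all genes. Of 15 glutamate receptor genes with at least 50 UMIs, *Grik2* and *Grm5* were past 2-fold higher in CKO and 0 were lower, with a median log2 ratio of 0.43. It was 0.21 with TMM factors, against −0.18 and −0.40 over all genes. *Grid1*, at 2356 CPM in control and 3894 CPM in CKO (1.65-fold, 1.39 to 1.96), and *Grm8*, at 1473 and 2484 CPM (1.69-fold, 1.36 to 2.08), were examples short of 2-fold, and *Gria4* was lower at a ratio of 0.770 (0.676 to 0.873). Of 6 GABA and glycine receptor genes 0 were higher and 2 were lower, the GABA-B receptor gene *Gabbr2*, at 774 and 336 CPM (ratio 0.434, 0.239 to 0.732), and the glycine receptor gene *Glrb*, at 199 and 89.5 CPM (0.450, 0.119 to 1.22), with a median of −0.44 (−0.66 with TMM factors). Of 5 genes of GABA synthesis, uptake and anchoring only *Gad1* was past 2-fold, with a median of −0.20 (−0.42 with TMM factors and 0.03 without sub-cluster 4). Of 15 voltage-gated channel genes *Kcnd2* (not without sub-cluster 4) and *Kcnq5* were higher and *Kcnd3* and *Cacna1b* lower. Their median was 0.03, and −0.19 with TMM factors, above the median of all genes under both scalings. *Kcnd3*, another A-type potassium channel gene, went from 1451 CPM in control to 492 CPM in CKO (ratio 0.339, 0.210 to 0.521). Of 14 synaptic adhesion genes *Cntnap2*, *Lrrc4c* and *Erbb4* were higher and *Ptprt* was lower, with a median of 0.44 (0.22 with TMM factors and 0.17 without sub-cluster 4). Without sub-cluster 4 *Cntnap2* was at 3.01 (1.95 to 4.54). It was at 1.85 (0.628 to 4.51) in sub-clusters 0, 1 and 5 alone, short of 2-fold. Both genes of calcium-binding proteins and neuropeptides with enough UMIs, *Pvalb* and *Nos1*, were within 2-fold. With *Pfkp* and *Xist*, 15 of 59 list members (25.4%) were past 2-fold, beside 30.0% of all genes, so these counts are not above those of genes at large.

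X-linked and Y-linked transcripts differed between the libraries. *Xist* was at 4187 CPM in control GABA_22, in 135 of 198 nuclei, and at 0 in CKO GABA_22, as it was at 1963 CPM over all control nuclei and 1.29 CPM over all CKO nuclei. Y chromosome genes had 44 UMIs in control GABA_22, in 25 nuclei of which 5 also had *Xist*, and 13 UMIs in CKO GABA_22. The control library thus held RNA of female and male mice, and the CKO library almost only of male mice. In control GABA_22 the Y chromosome genes were at 156 CPM (113 to 210), beside 189 CPM over all control nuclei and 18.8 CPM (12.7 to 26.9) in Glut_5. *Xist* was at 0 UMIs in CKO GABA_9 and Glut_5 nuclei too. The sexes were thus not balanced between the libraries, and no gene was compared within 1 sex.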

How the data were processed

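The deposited values are UMI counts per gene and nucleus that the authors made from PIPseq libraries with PIPseeker, after removal of background RNA with CellBender and of doublets with SOLO and by hand. The cluster labels are the authors'. UMIs of GABA_22 nuclei were summed per library and divided by their total, with 0.5 UMIs added for ratios to other nuclei and for medians. Intervals are exact (Poisson, binomial and conditional binomial). Sub-clusters came from scanpy 1.11.5 (2000 variable genes, 20 principal components, 15 neighbours) and leidenalg 0.10.2 at resolution 0.5. Scalings were checked with edgeR 4.0.16 and DESeq2 1.42.0. Other steps ran in R 4.3.3 and in Python 3.11.15 with scipy 1.17.1, and ratios were tested on simulated data. Coordinates are from GENCODE, GRCm39. Named genes are list members, the 20 leading genes against all other nuclei, the 15 highest and 10 lowest against GABA_9, the 10 highest and 10 lowest CKO over control ratios and the 10 leading genes of each sub-cluster. Members and lists were chosen with earlier results of these data known. Some list members are not reported here.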

Additional observations from a re-analysis of the deposited data

How the results depend on the processing

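The count of 265 genes past 2-fold between the libraries (30.0% of 884) was 743 of 1770 (42.0%) with a minimum of 20 UMIs, 6593 of 8362 (78.8%) with at least 1 UMI, 90 of 473 (19.0%) with a minimum of 100 UMIs and 81 of 399 (20.3%) with nuclei thinned to 1000 UMIs, so fewer or more genes were tested and the share past 2-fold changed too. It was 293 and 294 with TMM and DESeq2 factors, 280 with each nucleus weighted equally, 198 in nuclei with at least 1000 UMIs, 268 without sub-cluster 4, 190 in sub-clusters 0, 1 and 5, and 202 where the interval also had to leave out a ratio of 1; the last 3 were chosen after seeing the data. Lower genes outnumbered higher genes under each of these. The share of GABA_22 was 2.41% of control and 0.634% of CKO neurons, 9.63% and 17.4% of GABA_22 and Glut_5 nuclei (chosen after seeing the data), and, in nuclei with at least 1000 UMIs, 1.08% of control and 0.123% of CKO. The count of 15 list members past 2-fold was between 14 and 17. Sub-clusters numbered 4 at resolution 0.25 and 8 at resolution 1, against 6. Of 41 other values recomputed 5 moved, counts by more than 1.5-fold or other values past the interval of the reported value, namely the share of the largest sub-cluster (25.5%, then 43.8% and 17.9%) and 3 detection shares of thinned nuclei. Small list medians turned sign within their interval, that of GABA synthesis genes from −0.20 to 0.03 without sub-cluster 4 and that of voltage-gated channels from 0.03 to −0.19 with TMM factors, −0.18 with DESeq2 factors and −0.14 without sub-cluster 4. The 53 CKO nuclei with 44688 UMIs limit what can be seen, and a gene at 0 there may be below 67.1 CPM.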
